A study of Mus musculus with 5 samples.

Results

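The glycolytic pathway, with glucose uptake at its start and lactate export and glycogen storage at its edges, was followed in mouse embryonic stem (ES) cells with and without overexpression of Satb1, the gene of a chromatin protein with affinity for AT-rich DNA. The gene list names 44 genes of glucose transport, glycolysis, lactate handling, pyruvate dehydrogenase control and glycogen synthesis. A gene counted as measured when at least 1 probe set of the array was annotated to its symbol alone, and where it had several, the one with the highest average of the 5 arrays was used. This left 40 of the 44 genes, among 19938 genes measured in all. Gpi1, Pfkfb1, Gapdh and Eno1 were not analysed here. For Gapdh, 25 probe sets carried several gene symbols each.

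All 5 arrays came from ES cells titled tetO-Satb1, in which the transgene answers to doxycycline (DOX). The 2 uninduced arrays, whose genotype field reads control, were of cells without DOX, and the 3 induced arrays were of cells with DOX for 24 h, with genotype field Satb1 overexpression. RNA was taken 48 h after passaging. Cells were kept in serum and LIF, the cytokine that maintains ES cells. One protocol names irradiated feeder cells, reduced by settling before RNA preparation, while the series design speaks of LIF only. No arm had DOX without the transgene. Whether the arrays of a group were separate cultures is not labelled, so p-values measure only how these arrays differ, which may be technical variation, and the small number of arrays limits precision.

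Glycolysis splits glucose into pyruvate in the cytosol. Pyruvate then either enters mitochondria through the pyruvate dehydrogenase complex or is reduced to lactate and exported. Many steps are served by several isoforms encoded by different genes, some ubiquitous and some typical of muscle, liver or brain. ES cells are known for a high glycolytic flux, and several glycolytic genes are textbook targets of the hypoxia-inducible factors (HIF), which bind DNA at the core sequence ACGTG or GCGTG. In bulk RNA a lower level can mean fewer expressing cells or less RNA per cell, and these cannot be told apart.

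Satb1 checked the labels. Its log2 level was 4.95 and 5.34 without DOX and 8.61, 8.79 and 8.68 with it. It was the only gene of 19938 to pass an adjusted p of 0.05 (0.00502% of genes; adjusted p = 0.0038, limma). Its log2 change of 3.55 ran from 3.10 to 3.75 over 15 alternatives, but its adjusted p missed 0.05 with the prior spread taken from all genes (0.229), with limma's trend and robust options (0.283), with the replicate block (0.0823) and once the feeder mean entered the model (0.561). The mean log2 level of 12 ES cell markers lay between 9.04 and 9.11 on every array, and 2 of the 12 had non-overlapping lower groups (3.08% of all genes). Of 6 primitive endoderm markers, 2 had a lower and 3 a higher induced mean, and 1, Gata6, had non-overlapping higher groups (1.65% of all genes). The mean of 23 feeder fibroblast markers lay between 5.37 and 5.38 on uninduced and between 5.39 and 5.40 on induced arrays. Of the 23, 14 had a higher and 7 a lower induced mean. The largest increases were in Tagln, at a log2 change of 0.19, and Acta2, at 0.18, followed by Loxl1 at 0.08. The largest decrease was in Fap, at -0.08, and the collagen genes Col1a1 and Col1a2 had -0.0090 and 0.0078. The summed log2 level of the 23 ran from 123.5 to 123.7 in uninduced and from 123.9 to 124.3 in induced arrays. Of these markers, 11 lay at or below the median level of all genes, and the dimmest, Lum, had an uninduced mean of 2.46.

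Most glycolytic genes had slightly lower levels in induced cells. The largest decreases were in Slc16a3, the lactate exporter gene, and Pfkp, a phosphofructokinase gene, at 1.36-fold and 1.35-fold. Of the 40 measured genes, 31 had a lower mean with DOX (45.3% of all genes), 5 a higher mean (39.6% of all genes) and 4 the same value on every array. All 3 induced arrays lay below both uninduced arrays in 16 genes, where 3.08% of all genes did so, and above both in 2 genes, where 1.65% did. A value tied between the groups prevents such separation. Only 9.03% of all genes had 5 distinct values, against 20 of the 40 members. A gene with 1 value on every array, as 15.1% of all genes had, cannot show a change either. Background shares of non-overlap, of change and of p are therefore not strictly comparable with the counts of members, here and throughout. The log2 change was at or below -0.2 in 11 genes (1.59% of all genes) and at or above 0.2 in 0 genes (1.16% of all genes). No single member passed over all genes (adjusted p = 1 for each of the 40, limma). At an unadjusted p under 0.05, 12 members were lower (0.772% of all genes) and 1 was higher (0.301%). The median log2 change was -0.06 over the members and 0 over all genes. The list was chosen with results of these data known, so these counts are a description and not independent evidence of direction.

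**Figure D1:**
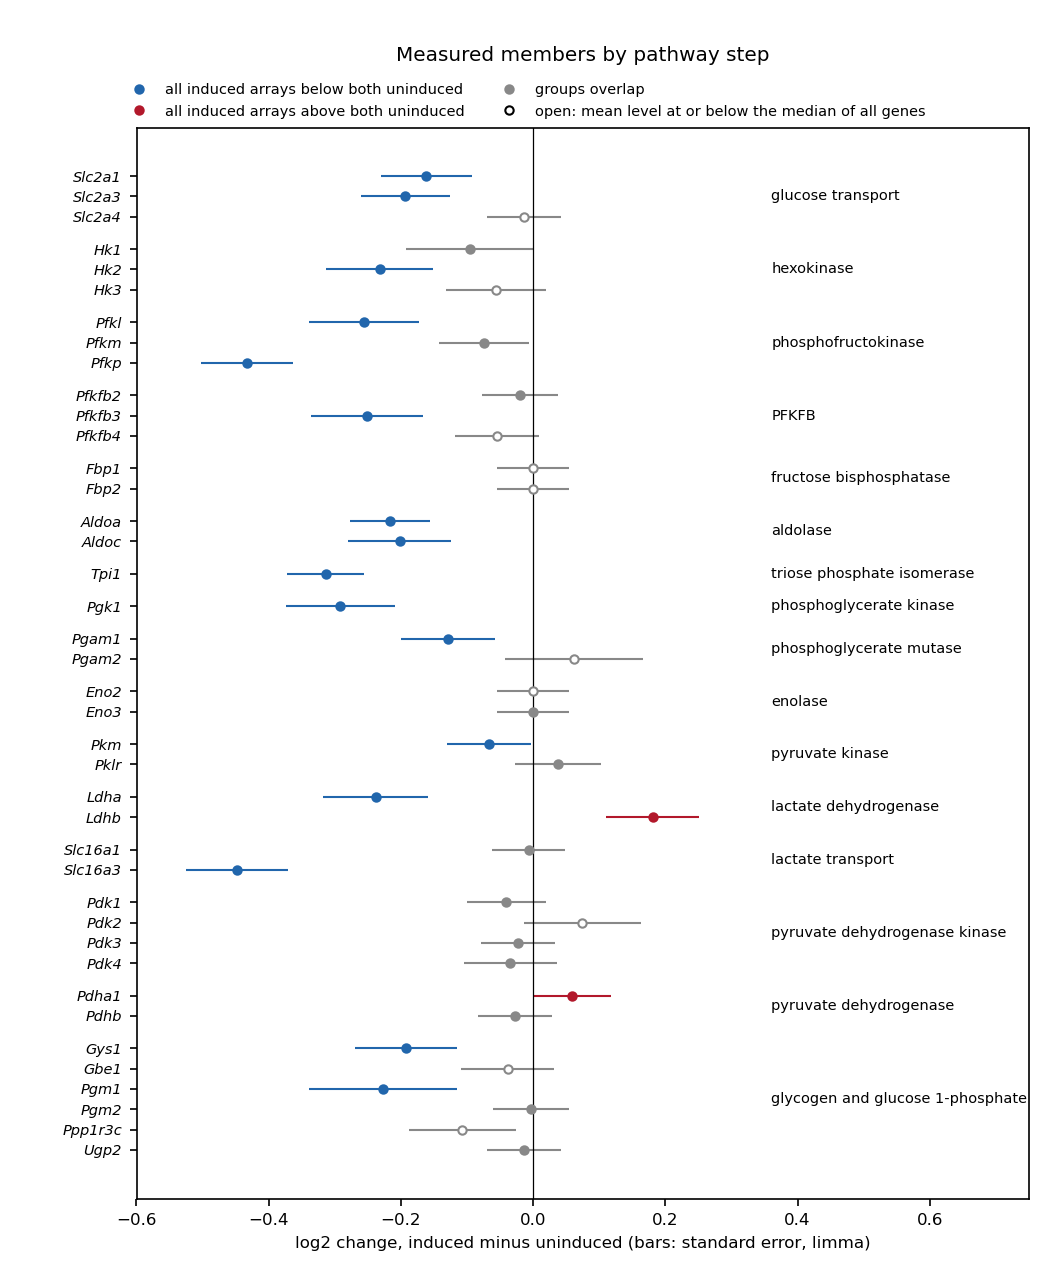
Log2 change (induced minus uninduced) of the 40 measured genes in pathway order, with bars for limma's standard error from 2 uninduced and 3 induced arrays. Blue marks the 16 genes with all induced arrays below both uninduced arrays, red the 2 above and grey the overlapping ones, and open circles the 10 genes at or below the median level of all genes.

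The mean of 30 members lay above the median level of all genes, a log2 value of 5.06, and the 16 lower members were among them. In those 30 the median change was -0.11, against -0.0038 over the 9969 genes above that level. Of those 9969 genes, 4.98% had non-overlapping lower and 1.57% higher groups, 1.34% had a change at or below -0.2 and 0.411% at or above 0.2. At an unadjusted p under 0.05 (limma), 113 of the 9969 were lower and 26 higher, against 12 and 1 of the 30 members. Among the 10 members at or below it, which include the muscle-type glucose transporter gene Slc2a4, the gluconeogenic Fbp1 and Fbp2, the neuronal enolase gene Eno2 and the muscle mutase gene Pgam2, the median change was -0.0068 and the groups overlapped in every gene. Values of these dim probe sets were often tied between arrays.

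Glucose enters ES cells through facilitative transporters. The gene of the neuronal and embryonic transporter GLUT3, Slc2a3 (probe set 10547641), was at 10.98 and 10.93 on the uninduced arrays and at 10.83, 10.70 and 10.76 on the induced arrays. All induced values lay below the uninduced ones, by a log2 change of -0.19 ± 0.07 (standard error, as after each ± beside a change below). Slc2a1, the gene of the widely expressed GLUT1, was at 10.82 and 10.83 without DOX and at 10.75, 10.65 and 10.59 with it. Its change was -0.16 ± 0.07, also without overlap. The within-array difference between the transporters moved by 0.03 between the groups, with overlap. Slc2a4, which encodes the insulin-responsive GLUT4, had a change of -0.01.

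Hexokinases trap glucose by phosphorylation. Hk2, the inducible isoform bound to mitochondria, was at 8.83 and 8.76 on uninduced and at 8.68, 8.51 and 8.49 on induced arrays. Its groups did not overlap, and the change was -0.23 ± 0.08, or 1.17-fold lower. Hk3, of myeloid cells, was at 4.59 on every array except induced array 1, at 4.42. Hk1, the constitutive isoform, had 2 probe sets that differed. The one with the higher mean (10414661) had a change of -0.10 ± 0.10 with overlap, but its single listed accession is shared by 16 probe sets that the annotation also gives to the ribosomal protein gene Rpl17. The other (10369541), which lists RefSeq messenger RNAs of Hk1, had the same value, 5.97, on all 5 arrays. No change of Hk1 is therefore claimed, but the first probe set stands for Hk1 in the counts, among the 31 members with a lower mean.

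Phosphofructokinase commits sugar to glycolysis, and its platelet-type subunit gene showed the second largest decrease of the list. Pfkp (10407481) was at 8.61 and 8.48 on uninduced and at 8.16, 8.12 and 8.06 on induced arrays. The gap between the groups was wider than the spread within either, with a change of -0.43 ± 0.07, or 1.35-fold lower (95% interval -0.60 to -0.26, adjusted p = 1, limma). Pfkl, the liver-type subunit, was at 7.95 and 7.88 against 7.76, 7.53 and 7.68, a change of -0.26 ± 0.08 without overlap. The muscle-type Pfkm was at 6.42 on 4 arrays and at 6.57 on uninduced array 2, so its change of -0.07 rests on that array.

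The bifunctional PFKFB enzymes set the level of the sugar phosphate that activates phosphofructokinase. Pfkfb3 (10480035), the isoform with the strongest kinase activity, was at 5.61 and 5.79 on uninduced and at 5.45, 5.53 and 5.37 on induced arrays. Its groups did not overlap, and the change was -0.25 ± 0.08, or -0.16 when uninduced array 2 was left out. Pfkfb4 had -0.05 and Pfkfb2 -0.02, with values tied on 3 and 4 arrays. The opposing fructose bisphosphatase genes, Fbp1 and Fbp2, had 1 value each on all arrays, at 3.09 and 4.89.

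Both measured aldolase genes, whose products split the sugar into trioses, were lower. Aldoa, the ubiquitous isoform (10568050), was at 10.72 and 10.73 on uninduced and at 10.56, 10.48 and 10.48 on induced arrays, a change of -0.22 ± 0.06. Aldoc, the brain isoform, was at 7.15 and 7.10 against 7.03, 6.83 and 6.91, a change of -0.20 ± 0.08. Neither gene's groups overlapped. The difference between Aldoa and Aldoc moved by only -0.01 between the groups.

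The triose steps held 2 of the larger decreases. Tpi1 (10547830), which interconverts the trioses, was at 9.84 and 9.79 without DOX and at 9.50, 9.53 and 9.47 with it. Its induced arrays lay close together and below the uninduced ones, with a change of -0.31 ± 0.06, or 1.24-fold lower. Pgk1 (10399379), whose enzyme makes the first ATP of the pathway, was at 10.61 and 10.50 against 10.37, 10.22 and 10.18. Its change was -0.29 ± 0.08 without overlap, and its 2 other probe sets, 1 of them with identical values, had -0.29 and -0.30.

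Further down, changes were smaller. Pgam1, the ubiquitous phosphoglycerate mutase, was at 9.46 and 9.38 against 9.33, 9.21 and 9.34, a change of -0.13 ± 0.07 without overlap (-0.08 when induced array 2 was left out), and -0.13 in each of its 3 probe sets, 2 of them identical. The muscle isoform Pgam2 was at 4.84 and 4.82 on uninduced and at 4.82, 4.78 and 5.09 on induced arrays, so its change of 0.06 rests on induced array 3 and was -0.03 without it. Eno2 and the muscle enolase gene Eno3 had 1 value each on all arrays, at 4.24 and 5.51. Pkm, which encodes the pyruvate kinase of proliferating cells and muscle, was at 10.87 on both uninduced arrays and at 10.86, 10.79 and 10.75 on induced arrays. Its change was -0.07 ± 0.06, and its groups, which did not overlap as deposited, did so after each array was centred on its median. It was -0.0059 with quantile normalization applied again and -0.04 without induced array 3. In its second probe set, the one listing RefSeq messenger RNAs, the change was -0.05 with overlapping groups. Pklr, of liver and red cells, was at 5.15 on every array except induced array 3, at 5.26.

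**Figure D2:**
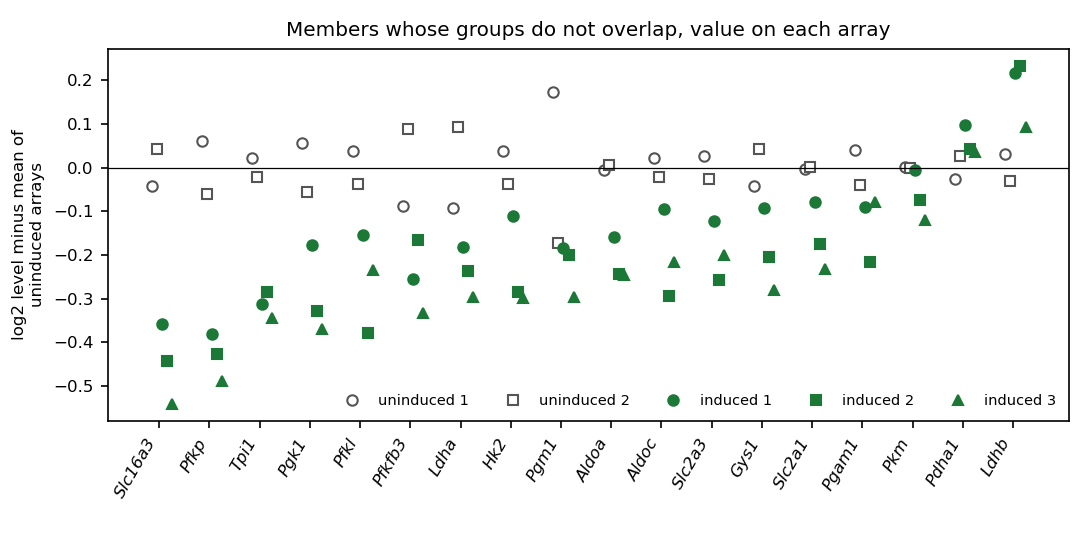
Log2 level on each array, relative to the mean of the uninduced arrays of the same gene, for the 18 genes whose groups do not overlap. Open symbols are the 2 uninduced and filled symbols the 3 induced arrays; 16 genes lie below and Pdha1 and Ldhb above, and in 13 of the 16 lower genes induced array 1 is the highest of the induced arrays.

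At the lactate branch, the isoforms had changes of opposite sign. Ldha (10553301), whose subunit favours making lactate, was at 10.81 and 10.99 on uninduced and at 10.72, 10.67 and 10.60 on induced arrays. Its change was -0.24 ± 0.08 without overlap, and -0.15 when uninduced array 2 was left out. Ldhb (10462035), whose subunit favours turning lactate back to pyruvate, was at 7.65 and 7.59 against 7.84, 7.86 and 7.72. Its induced arrays all lay above the uninduced ones, with a change of 0.18 ± 0.07, the largest increase of the list. A second Ldhb probe set had 0.15, with an induced value equal to an uninduced one. The within-array difference Ldha minus Ldhb was 3.16 and 3.40 on uninduced and 2.88, 2.81 and 2.89 on induced arrays. This difference of log2 values was lower by -0.42 with DOX (exact permutation p = 0.1, the smallest that 5 arrays can give; 0.457 adjusted over 16 isoform pairs).

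The lactate transporters differed as well. Slc16a3 (10383502), the gene of the exporter MCT4 typical of glycolytic cells, was at 8.47 and 8.56 on uninduced and at 8.16, 8.08 and 7.98 on induced arrays. It had the largest decrease of the list, at -0.45 ± 0.08, or 1.36-fold lower (95% interval -0.64 to -0.26, adjusted p = 1, limma), with a gap between the groups wider than the spread within either. Slc16a1, the gene of the widely expressed MCT1, was at 8.42 and 8.44 against 8.44, 8.41 and 8.42, with a change of -0.0070 ± 0.06 (95% interval -0.14 to 0.13). The within-array difference Slc16a1 minus Slc16a3 was -0.05 and -0.12 on uninduced and 0.28, 0.34 and 0.45 on induced arrays. It moved by 0.44 (exact permutation p = 0.1, the smallest possible; 0.457 adjusted over the 16 pairs).

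Of the 16 isoform pairs, 7 had non-overlapping within-array differences, 1 of them Hk1 with Hk2, which uses the doubtful Hk1 probe set, and 3 reached the smallest possible p of 0.1. The third was the glycogen pair Gys1 and Gbe1, which are different enzymes, at -0.15. No pair could pass 0.05 with 5 arrays. The changes of Pfkl and Pfkp differed by 0.18 (exact permutation p = 0.2), without overlap.

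**Figure D3:**
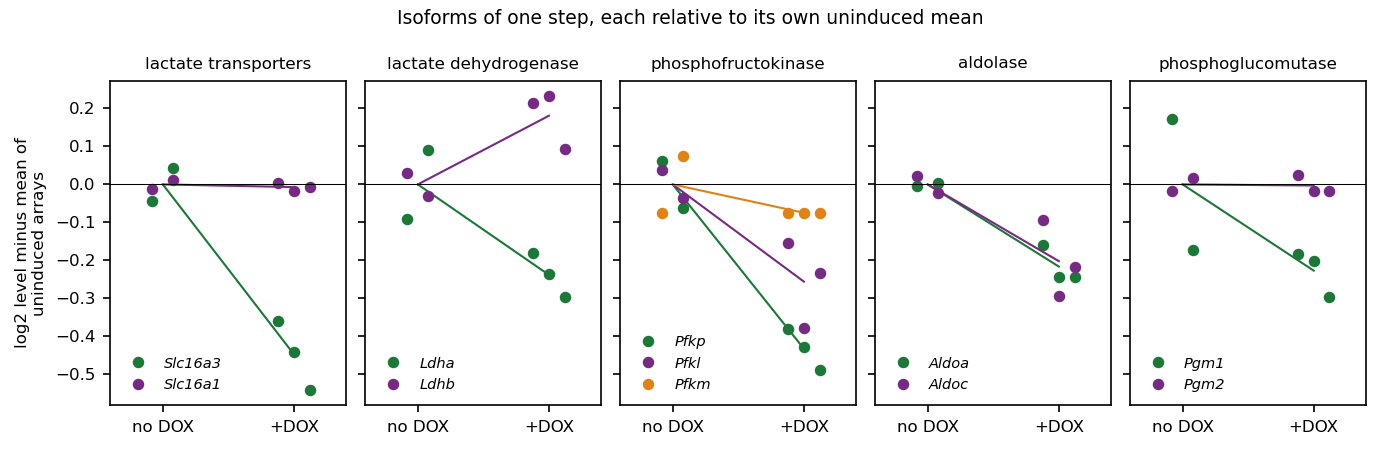
Log2 level of isoforms of 5 steps on each array, relative to each gene's own uninduced mean, without DOX (2 arrays) and with DOX (3 arrays); lines join group means. Slc16a3 and Ldha lie lower with DOX while Slc16a1 stays near 0 and Ldhb lies higher, and Aldoa and Aldoc move by similar amounts.

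At the gate into mitochondria, the kinases and subunits of pyruvate dehydrogenase had small changes. Pyruvate dehydrogenase kinases switch the complex off. Pdk1, a textbook HIF target, was at 7.64 and 7.60 on uninduced and at 7.60, 7.60 and 7.53 on induced arrays, a change of -0.04 ± 0.06 with overlap. Pdk3 and Pdk4 had -0.02 and -0.03. Pdk2 was at 4.75 on every array except induced array 2, at 4.97, and its change of 0.07 rests on that array. Pdha1, the catalytic subunit of the complex, was at 9.51 and 9.56 against 9.64, 9.58 and 9.58, a change of 0.06 ± 0.06 whose groups did not overlap as deposited but did after each array was centred on its median, and which was 0.03 without uninduced array 1. Pdhb had -0.03. Over these 6 genes the change ran from -0.04 to 0.07.

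Glycogen synthesis starts from a glucose phosphate made by phosphoglucomutase. Pgm1 (10506188) was at 7.31 and 6.96 on uninduced and at 6.95, 6.94 and 6.84 on induced arrays. Its change of -0.23 ± 0.11 was carried by uninduced array 1, and without that array it was -0.05, and without uninduced array 2 it was -0.40. Pgm2 had -0.0029. Gys1, the glycogen synthase of most tissues, was at 6.50 and 6.58 against 6.45, 6.34 and 6.26, a change of -0.19 ± 0.08 without overlap. The branching enzyme gene Gbe1 had -0.04, Ugp2, which makes the glucose donor of glycogen synthesis, -0.01, and Ppp1r3c, a phosphatase subunit that targets glycogen, -0.11, all with overlap.

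Promoter sequences are shown for the members with the 2 largest decreases, for the triose genes Tpi1 and Pgk1, and for the lactate dehydrogenase pair that went in opposite directions. Each is the part before the transcript start (250 bases) of a RefSeq window on GRCm38.p6, written 5′ to 3′ along the gene. Capitals mark ACGTG or GCGTG on either strand (CACGT and CACGC in the printed strand), and a CACGTG, the E-box of other factors, contains both ACGTG and CACGT. For Ldha, which has 2 windows, the one with more matches is given.

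Slc16a3, chr11:120948817-120949066, plus strand: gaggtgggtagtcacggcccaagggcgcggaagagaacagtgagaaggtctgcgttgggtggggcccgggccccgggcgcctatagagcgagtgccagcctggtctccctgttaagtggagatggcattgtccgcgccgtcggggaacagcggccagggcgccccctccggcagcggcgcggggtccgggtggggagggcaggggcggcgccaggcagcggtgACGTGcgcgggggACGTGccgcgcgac
Pfkp, chr13:6648772-6649021, minus strand: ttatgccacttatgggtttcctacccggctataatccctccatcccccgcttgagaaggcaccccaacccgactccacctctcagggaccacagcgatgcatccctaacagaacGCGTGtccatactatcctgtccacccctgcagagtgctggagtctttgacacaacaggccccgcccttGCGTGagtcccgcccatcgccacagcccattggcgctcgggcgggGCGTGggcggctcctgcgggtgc
Tpi1, chr6:124814159-124814408, minus strand: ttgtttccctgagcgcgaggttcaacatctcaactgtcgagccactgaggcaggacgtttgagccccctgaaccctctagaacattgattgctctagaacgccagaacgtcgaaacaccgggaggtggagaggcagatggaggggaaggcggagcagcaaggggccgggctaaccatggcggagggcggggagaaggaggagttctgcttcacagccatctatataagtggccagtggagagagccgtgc
Pgk1, chrX:106186850-106187099, plus strand: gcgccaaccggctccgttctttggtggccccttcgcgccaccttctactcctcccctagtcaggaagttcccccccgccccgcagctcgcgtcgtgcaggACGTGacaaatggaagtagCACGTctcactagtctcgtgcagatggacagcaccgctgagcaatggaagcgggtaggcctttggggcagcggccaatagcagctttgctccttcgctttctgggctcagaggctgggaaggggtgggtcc
Ldha, chr7:46845554-46845803, plus strand: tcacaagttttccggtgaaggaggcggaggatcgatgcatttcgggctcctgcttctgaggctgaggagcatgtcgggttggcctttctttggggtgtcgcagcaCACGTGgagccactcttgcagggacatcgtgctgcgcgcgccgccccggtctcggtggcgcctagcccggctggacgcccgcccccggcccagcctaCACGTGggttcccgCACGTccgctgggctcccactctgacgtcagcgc
Ldhb, chr6:142507958-142508207, minus strand: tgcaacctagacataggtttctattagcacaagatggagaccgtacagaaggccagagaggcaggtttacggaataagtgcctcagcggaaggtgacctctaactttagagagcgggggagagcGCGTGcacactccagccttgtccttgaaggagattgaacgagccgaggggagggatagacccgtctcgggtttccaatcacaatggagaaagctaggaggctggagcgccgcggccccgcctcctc

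In these stretches Slc16a3, Pgk1 and Ldha hold ACGTG or its reverse, Pfkp and Ldhb hold GCGTG only, and Tpi1 holds no match. Of the 40 measured members, 38 matched a promoter entry by symbol, and Slc2a3 and Slc2a4 did not. In windows from 250 bases before to 50 after the start, 31 of the 38 (81.6%) held ACGTG or GCGTG in at least 1 window, against 46.7% of 27025 genes with windows and 69.1% of those measured above the median level. ACGTG alone was held by 23 (60.5%), against 21.8% and 30.5%. Among the 15 lower members with non-overlapping groups and a window, 11 held ACGTG, and among the 23 others 12 did. A gene with several windows has more chances to match, and a match describes letters only.

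Neighbouring routes of glucose metabolism were followed in separate lists. Of 57 further genes of glucose handling, 29 had a lower and 18 a higher mean, 3 had non-overlapping lower groups (3.08% of all genes) and 2 higher (1.65%), and none passed an unadjusted p of 0.05 in either direction. The 4 with the smallest p were Tigar, a phosphatase that slows phosphofructokinase, at -0.16 ± 0.07, the testis isoform Pgk2 at -0.25 ± 0.11, Txnip, which holds back glucose uptake, at -0.17 ± 0.07, and Bsg, the chaperone of the lactate transporters, at -0.13 ± 0.07. Bsg was at 8.28 and 8.41 on uninduced and at 8.24, 8.21 and 8.18 on induced arrays.

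Pentose phosphate genes had a median change of 0.01 over 10 genes, led by Rpe (-0.11 ± 0.07), Prps1 (-0.11 ± 0.07), Prps2 (0.08 ± 0.08) and Pgls (0.03 ± 0.06). The TCA cycle, which burns acetyl groups in mitochondria, had -0.0058 over 19 genes, with Idh3b at -0.08, Suclg1 and Sdha at -0.06 and Idh1 at -0.04. Neither list had a gene with non-overlapping groups. The respiratory chain had -0.02 over 38 genes, of which 2 had lower and 2 higher non-overlapping groups (3.08% and 1.65% of all genes). Its genes with the smallest p were Ndufa1 at 0.15, Cox6a1 at -0.13, Cox7a2 at 0.10 and Atp5c1 at -0.09. HIF targets outside glucose metabolism had -0.24 over 20 genes, 14 of them with lower non-overlapping groups (3.08% of all genes). Egln3, which marks HIF for destruction, had -0.90, the mitophagy gene Bnip3 -0.88, Ddit4 -0.50 and the collagen hydroxylase gene P4ha1 -0.48. No gene of these 5 lists passed over all genes (limma), and the lists were not tested against each other.

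**Figure D4:**
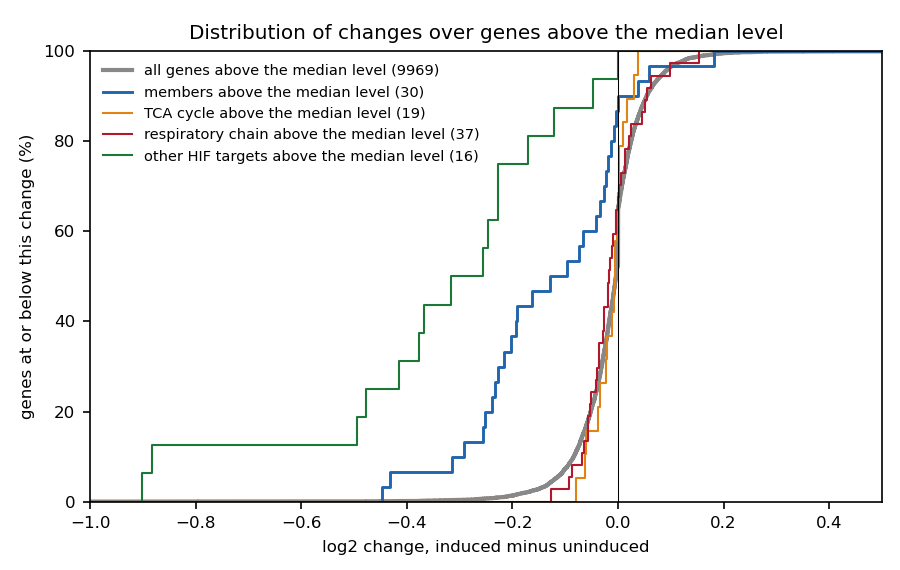
Share of genes (%) at or below a given log2 change, over genes above the median level, with the number of genes in brackets; Satb1, at 3.55, lies beyond the right edge. The curve of the 30 glycolytic members lies left of that of all 9969 genes over most of its lower range, those of the TCA cycle and respiratory chain lie near it, and that of other HIF targets lies furthest left.

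The induced arrays were not alike. The mean log2 level of the 40 members was 7.24 and 7.23 without DOX and 7.16, 7.13 and 7.12 with it. In 13 of the 16 lower members induced array 1 was the highest of the 3, and in 12 induced array 3 was the lowest. Induced array 1 also had the lowest feeder mean of the induced arrays. The highest feeder mean was on induced array 2, which was the lowest induced array in 4 of the 16 lower members. A link between the feeder mean and these levels was not tested. The feeder mean was higher on every induced than on every uninduced array, so a model with both cannot tell the feeder mean from DOX. Tagln and Acta2 had the largest increases in that mean, and whether it follows feeder content was not tested. In such a model the standard error of Fbp2, with 1 value on all arrays, rose from 0.0549 to 0.146. When the feeder mean was added to the model, the median change of the members was 0, 17 members had a lower and 19 a higher estimate, and 9 of the 16 lower members kept a lower estimate. Slc16a3 was then at -0.38 ± 0.19, Pfkp at -0.29 ± 0.17, Tpi1 at -0.31 ± 0.15, Pfkfb3 at -0.44 ± 0.19 and Ldha at -0.27 ± 0.20. The lower estimates of Pgk1 (-0.03 ± 0.16), Slc2a1 (-0.03 ± 0.17), Aldoa (-0.115 ± 0.152) and Gys1 (-0.09 ± 0.19) were each smaller in size than their standard error. Hk2, Pfkl, Aldoc, Pgam1, Pkm, Pgm1 and Slc2a3 had estimates from 0.0007 to 0.06, each smaller than its standard error. Leaving out any 1 array, the 5 members with the largest decreases, Slc16a3, Pfkp, Tpi1, Pgk1 and Pfkl, kept their direction. Their groups did not overlap, so this outcome was fixed in advance and adds no support.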

How the data were processed

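RNA was measured on 5 microarrays, grouped by title. The deposited log2 values for 35557 probe sets are RMA summaries made by the authors, per the submitters' processing notes, which give no version; RMA corrects background, normalizes between arrays and gives 1 value per probe set. The log2 scale was read from the values, and the sources used here name neither software nor build. The array annotation gave 21789 probe sets 1 gene symbol, 1621 several, and left 12147 unnamed. Many values were exactly tied between arrays: 1800 of 19938 genes had 5 distinct values, and ties make the spread too small. Of the members, 20 had 5 distinct values.

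Genes were fitted with limma 3.58.1 in R 4.3.3. The prior spread came from the genes with 5 distinct values (prior SD 0.0859, 2.87 degrees of freedom) and was applied to every gene, with Benjamini-Hochberg adjustment over all 19938 genes. Low values were not filtered. The test was tested on simulated data with the real tie pattern, except that genes given a change got no ties between the groups. There its share of false calls was above the nominal level but lower than with the prior from all genes. Members, lists and tests were chosen with earlier results of these data known.

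Values on all arrays are given for members with non-overlapping groups and a log2 change of at least 0.2 in size, the smallest p of other steps and the 3 largest increases; Slc2a1, Slc16a1, Pdk1, Gys1 and a few tied members are also given, chosen after their values were seen. Other lists are named by up to 4 smallest p. Isoform pairs were tested with an exact two-sided permutation test over 10 splits. Of 18 planned pairs, 16 were run, without those of Eno1. Alternatives were another choice of probe set, a level filter, scaling, priors, untied genes, a replicate block, a feeder covariate and arrays left out.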

Additional observations from a re-analysis of the deposited data

How the results depend on the processing

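No member passed over all genes in any of the alternatives, and the lowest adjusted p of a member was 0.186 (Pfkp, limma, genes above the median level). Against 1 gene called over all genes, Satb1, the count was 2 for genes above the median level (Satb1 and Sall1), and 0 with the feeder covariate (Satb1 at adjusted p = 0.561, limma). It was 3 with the prior from all genes and 3 with eBayes with trend and robust, each time Gm4759, Gpr55 and Prmt8 and not Satb1 (adjusted p = 0.229 and 0.283). Deviations from the group means were almost uncorrelated between arrays with the same title number (-0.0063 and 0.0063 for 2 pairs). With so few arrays and many tied values, this does not settle whether the numbers pair the arrays. The replicate block gave 0 genes called (Satb1 at adjusted p = 0.0823, limma) and a median change of the members of -0.05. The median of -0.06 was -0.11 for genes above the median level and -0.20 over 22 members untied within both groups, each over fewer members, and 0 with the feeder covariate. Leaving out 1 array at a time gave medians from -0.06 to -0.04. It gave 16 to 22 lower members without overlap, a count that cannot fall below 16 when an array is removed. Centring each array gave 17 lower members without overlap, with Pdhb and Ugp2 added and Pkm lost, and 1 higher, with Pdha1 lost. Quantile normalization applied again gave 14 lower members without overlap. Choosing probe sets with RefSeq messenger RNAs, an alternative chosen after seeing the data, gave 15 lower members without overlap.

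Signs turned for Pgam2, at -0.034 with the replicate block, and with single arrays left out it ran from -0.034 (without induced array 3) to 0.121. With the feeder covariate 15 of the 31 lower members had a higher estimate and 1 of the 5 higher members a lower one; among those with values on all arrays by the naming rule, these were Slc2a3 (0.0007), Hk2 (0.0363), Pfkl (0.041), Aldoc (0.0611), Pgam1 (0.0534), Pkm (0.0292), Pgm1 (0.0228) and Pdk2 (-0.163). The feeder mean and DOX cannot be told apart in that model, and the cause was not tested.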
